A study of Mus musculus with 16 samples.

Results

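CTCF chromatin immunoprecipitation sequencing (ChIP-seq) of female mouse embryonic stem (ES) cells at day 3 of differentiation was compared with the same assay at day 0. The full peak lists of 3 libraries were used, without the lists split by parental allele, on chromosomes 1 to 19 and X of build mm9. They held 41264 peaks at day 3, and 45377 and 76745 peaks in day 0 replicates 1 and 2. These 163386 peaks were part of the 762660 peaks in the full ChIP and CLIP lists analysed from a series of 16 samples, in which CLIP maps RNA contacts of CTCF. The CLIP lists were those of the libraries made with UV. The series also has CLIP libraries made without UV at both days, which were not used here.

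Day 3 cells had spent 3 days in suspension without LIF and carried the strain label 129S1/CastEiJ x 129S1. Day 0 cells carried the same strain label and were adherent with LIF, the cytokine that keeps mouse ES cells undifferentiated. The same antibody to CTCF, from Cell Signaling, was used in all 3 libraries, on formaldehyde-fixed chromatin sheared by sonication. Day 0 replicate 2 is labelled as undifferentiating and replicate 1 as undifferentiated, and both are labelled day 0. The labels do not say whether the cells are 1 clone or whether the day 0 libraries came from separate cultures. The identity of the cells was not checked against marker genes, because positions in mm9 were not tied to gene names here. Day 3 had 1 library, so no difference between days could be tested. Each day 3 value is therefore set beside the gap between the 2 day 0 libraries, which may be technical.

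As a DNA-binding factor with many zinc fingers, CTCF sits on a long motif at insulators and at many promoters. Together with the cohesin ring it anchors many chromatin loops and domain boundaries, and a large part of its sites is known to be shared between cell types. In female ES cells, silencing of an X chromosome begins once differentiation starts, and CTCF sites around the X-inactivation centre are known to take part in its control.

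Most of the strong CTCF sites of day 3 were also listed at day 0, and the days shared as many sites as the day 0 libraries shared with each other. When the 3 lists were cut to their 41264 highest-scoring peaks, 67.7% of day 3 peaks overlapped a peak of day 0 replicate 1 (exact 95% interval 67.3 to 68.2) and 78.7% a peak of day 0 replicate 2 (78.3 to 79.1). Between the day 0 libraries, 71.5% of replicate 1 peaks were found in replicate 2 (71.1 to 71.9) and 70.1% of replicate 2 peaks in replicate 1 (69.6 to 70.5). The mean for day 3 was 73.2% ± 7.73 (SD over the 2 day 0 libraries), against a mean of 70.8% between the day 0 libraries. Intervals are Clopper-Pearson and cover counting error only.

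The same held among stronger peaks. Of the 20000 highest-scoring day 3 peaks, 73.3% and 73.2% were found among the 20000 highest of day 0 replicates 1 and 2, against 71.4% of replicate 1 peaks found in replicate 2. Of the highest 5000, 49.8% and 44.6% of day 3 peaks were found in the corresponding lists of day 0 replicates 1 and 2, against 43.6% between the day 0 libraries. The sets of highest-scoring peaks thus differed as much between the 2 libraries of day 0 as between days.

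The score of a peak, which is the authors' own value, set how often it was found again. In the lowest 10% of the day 3 list by score, 16.2% of peaks were found in day 0 replicate 1 and 25.6% in replicate 2. In the highest 10%, these shares were 98.7% and 99.4%. The day 0 libraries gave the same range, from 21.1% to 98.8% of replicate 1 peaks found in replicate 2. Peaks missing from a second library were therefore mostly low-scoring peaks, within day 0 as well as between days.

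**Figure D1:**
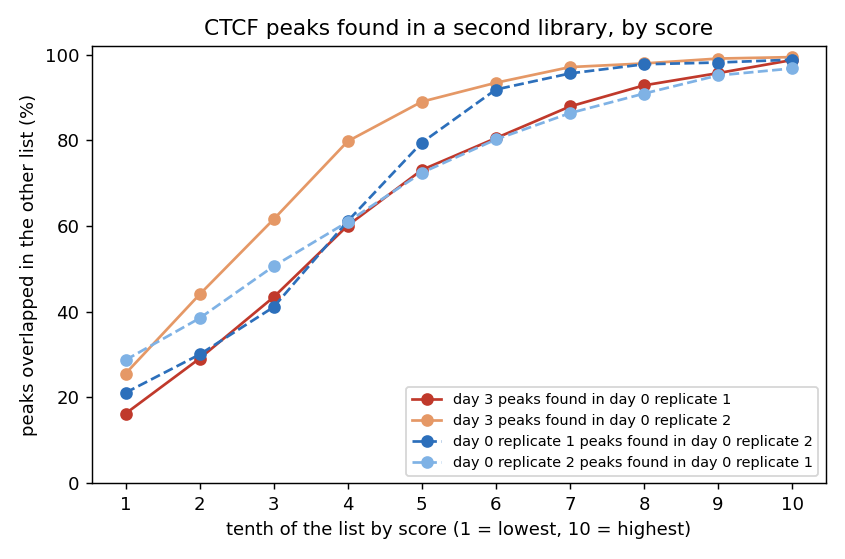
Share of CTCF peaks overlapped by at least 1 bp in a second library (vertical axis, %), in 10 equal bins of the list by score (horizontal axis, lowest to highest), for lists of 41264 peaks. Solid lines are day 3 peaks looked up in the day 0 libraries and dashed lines are the day 0 libraries looked up in each other. All 4 lines run from under 30% to over 96%, and the day 3 lines lie among or above the day 0 lines in the upper bins.

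Peaks that overlapped between days had midpoints about as close together as those within day 0. Only overlapping peaks were paired, so a peak moved beyond overlap would count as missing and not as displaced. Peaks that were each other's nearest overlapping peak had midpoints a median of 55.5 bp apart between day 3 and day 0 replicate 1 (28297 pairs), and 69.5 bp apart between day 3 and day 0 replicate 2 (35229 pairs). The day 0 libraries were 76.5 bp apart (32449 pairs), the widest of the 3 medians. Midpoints lay within 100 bp in 65.1% and 61.8% of the day 3 pairs, against 58.0% of the day 0 pairs. The signed offset had a median of 0.5 bp against both day 0 replicates, so day 3 peaks in these pairs were not displaced to either side. Stronger pairs lay closer: among the highest 5000 peaks of each list, the medians were 26.0 and 37.0 bp for day 3 against day 0 replicates 1 and 2, and 37.0 bp within day 0.

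Peak width did not separate the days either. The median was 2005 bp at day 3, against 1964 and 2013 bp in day 0 replicates 1 and 2. Matched peaks were wider at day 3 than in day 0 replicate 1 by a median log2 ratio of 0.03, and narrower than in replicate 2 by a median log2 ratio of -0.17. The day 0 replicates differed by -0.20 (replicate 1 over replicate 2), more than either day 3 comparison.

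The shape of the width distribution differed from list to list. Peaks under 600 bp made up 5.39% of the day 3 list, against 7.27% and 0% in day 0 replicates 1 and 2, whose shortest peaks were 420 and 830 bp. Width grew with score in all 3 lists. From the lowest to the highest of 4 equal score bins the median went up to 2076 bp at day 3, to 2049 bp in day 0 replicate 1 and to 2323 bp in day 0 replicate 2, and the lowest bins had medians of 1585, 1494 and 1095 bp. Among the 20000 highest-scoring peaks, the median at day 3 differed by -116.5 bp from the day 0 mean, which is less than the SD of 204 bp between the day 0 libraries. In the full lists this difference was 16.5 bp, and it was -8.0 bp without day 0 replicate 1 and 41.0 bp without replicate 2. Replicate 2, the list with the most peaks, stood apart among matched pairs and among the 20000 highest-scoring peaks, while in the full lists its median was the closer to day 3.

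**Figure D2:**
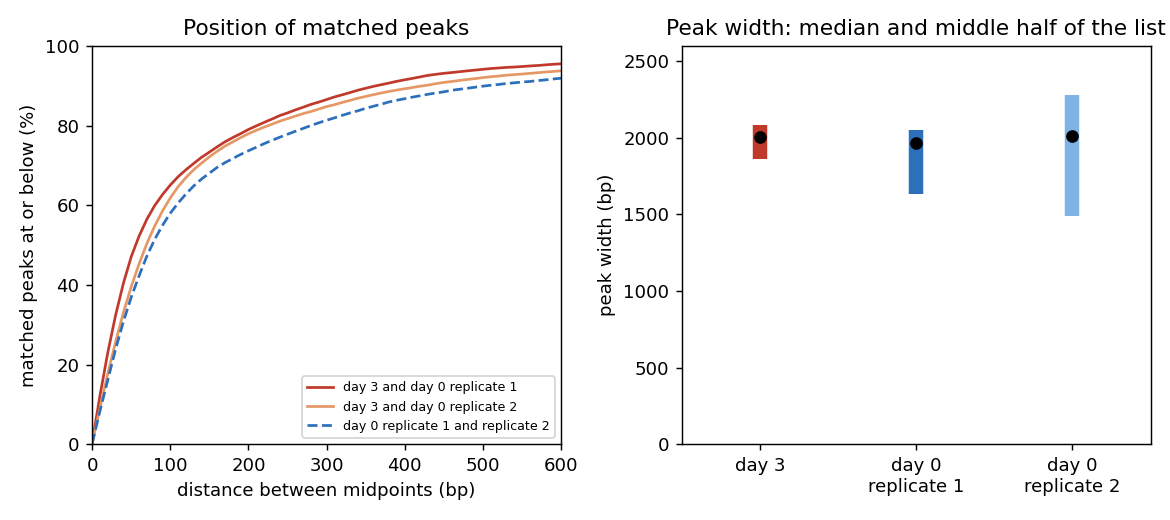
Left, cumulative share of matched peaks (%) by the distance between their midpoints (bp) for day 3 with each day 0 library (solid) and for the 2 day 0 libraries (dashed). Right, peak width (bp) in each full list, with the median as a dot and the middle 50% of peaks as a bar. The dashed line lies below both day 3 lines, and the median widths are 2005 bp at day 3 and 1964 and 2013 bp at day 0.

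Overlapping peaks were merged into 93527 sites, of which 27464 had a peak in all 3 libraries. Scores of different lists are on different scales, so each site was given its score percentile among these shared sites in each library. Day 3 kept the order of the sites as well as a day 0 replicate did. The percentile differed by a median of 16.9 points between day 3 and day 0 replicate 1 and by 17.5 points between day 3 and replicate 2, against 18.3 points between the day 0 replicates. Spearman's rho across sites was 0.554 and 0.521 for day 3 with day 0 replicates 1 and 2, and 0.494 within day 0. Sites of a library share its depth and its background, so these rho values are descriptions. Day 3 ranked above both day 0 libraries at 32.8% of the sites and below both at 32.4%. An equal split of first and last place among 3 libraries gives shares near these, so they do not count sites that moved.

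**Figure D3:**
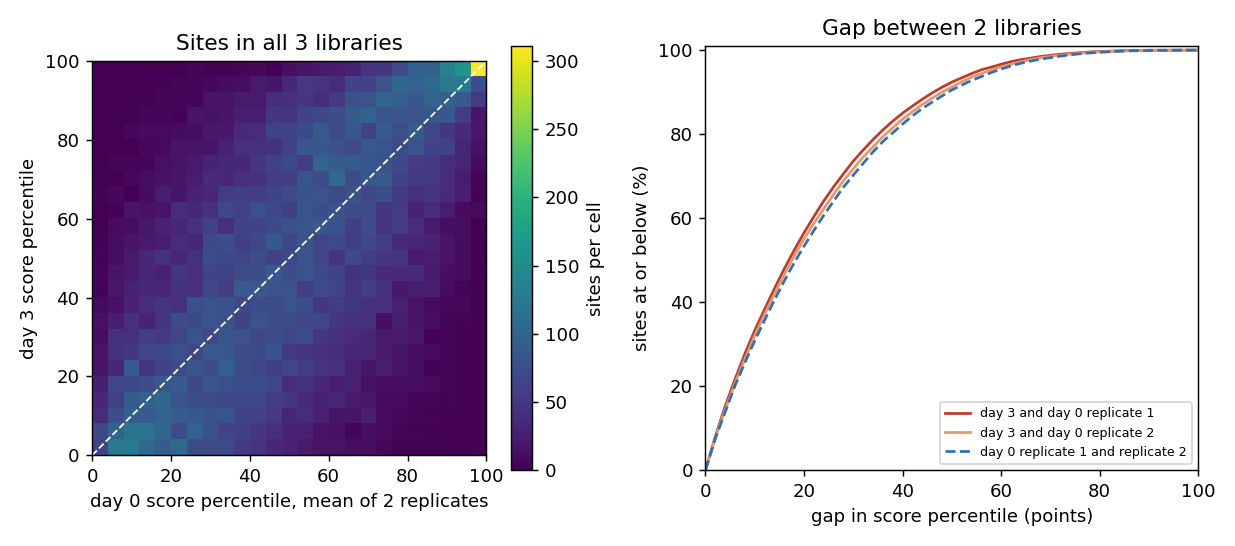
Left, number of shared sites (colour) by day 3 score percentile and by the mean day 0 score percentile. Right, cumulative share of shared sites (%) by the gap in score percentile between 2 libraries. The day 3 lines lie on or above the dashed day 0 line, with medians of 16.9 and 17.5 against 18.3 points.

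A site was called shifted when its day 3 percentile lay beyond both day 0 percentiles and differed from their mean by more than 58.7 points, the 95th percentile of the gap between the day 0 replicates. By this rule 181 sites were higher at day 3 (0.659% of the 27464) and 237 were lower (0.863%). The count and the balance of directions depended on the ranking: with percentiles taken within each full list, 15 sites were higher and 833 lower, of which 15 and 214 were among those above. Against a single day 0 library, 574 were higher and 637 lower without replicate 1, and 534 were higher and 507 lower without replicate 2.

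Most shifted sites, like most shared sites, lay more than 1 kb from a transcript start, and the share near starts was somewhat higher among shifted sites. A transcript start lay within 1 kb of 22 of the 181 higher sites (12.2%) and 35 of the 237 lower sites (14.8%), against 9.99% of all shared sites, a difference that was not tested. X held 7 of the higher and 10 of the lower sites, which is 0.773% and 1.10% of its 905 shared sites. The median shift was 0.0255 points on X and 0.362 points on autosomes, and chromosome medians ran from -1.25 to 2.02 points.

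The site with the largest gain was chr5:147485955-147488013. Its peak scored 64.9 at day 3 (percentile 93.5 of the full list), against 20.6 and 10.3 in day 0 replicates 1 and 2 (27.7 and 27.4). The day 3 peak was 2059 bp wide and the day 0 peaks 432 and 1350 bp. The contrast in score is part of the rule that called the site. Width grew with score in all 3 lists, so the widths are not a separate result. The midpoint of the site was 8744.5 bp from the nearest transcript start.

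At chr4:122899619-122901761 the score was 63.0 at day 3 (percentile 92.7), against 19.99 and 15.7 at day 0 (23.6 and 47.9). On X, the site chrX:59779119-59782694 scored 67.97 at day 3 (percentile 94.8), against 20.8 and 21.2 at day 0 (28.9 and 59.3), and its midpoint was 155639 bp from the nearest transcript start. At chr11:101034020-101039488 day 3 had 2 peaks, the stronger with a score of 71.0 (percentile 95.7), against 21.9 and 21.9 at day 0 (34.4 and 60.6). The percentiles given for named sites are of each full list, while the rule used percentiles among the shared sites. On that scale the chrX site stood at 92.3 at day 3, against 8.05 and 13.2 in day 0 replicates 1 and 2. The chr11 site stood at 93.7, against 11.1 and 14.8. Low ranks at day 0 on that scale are part of the rule that called these sites and are not a result.

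The midpoint of the chromosome 11 site was 2.5 bp from a minus-strand transcript start, with a nuclear RNA level of 1.67 FPKM at day 3, against 2.29 FPKM at day 0 (1 library each). This is the midpoint of the merged region, which held 2 day 3 peaks, and not of the stronger day 3 peak. Of the 10 largest gains, chr13:41314986-41317233 was the other with a start within 1 kb and an RNA value, at 1.77 FPKM at day 3, against 3.13 FPKM at day 0. Its score was 56.5 at day 3 (percentile 88.8), against 21.0 and 17.8 at day 0 (30.2 and 52.7). At both starts the RNA level was low and lower at day 3, with no replicate to give its spread.

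The largest loss of rank was at chr2:66599930-66603140. It scored 16.6 at day 3 (percentile 6.34), against 57.0 and 76.9 in day 0 replicates 1 and 2 (90.9 and 98.8). Its day 3 peak had the minimum width of 410 bp, against 2044 and 3211 bp at day 0. A peak in all 3 lists and a low rank at day 3 are part of the rule that called the sites with a loss, and are not a result.

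At chr1:137676918-137679140 the score was 17.5 at day 3 (percentile 12.6), against 69.4 and 60.7 at day 0 (96.1 and 96.5). At chr6:119324154-119326622 it was 20.4 at day 3 (percentile 25.4), against 83.4 and 72.9 at day 0 (98.5 in both libraries). On X, chrX:33535948-33538359 scored 18.3 at day 3 (percentile 17.1), against 50.7 and 59.3 at day 0 (86.4 and 96.1). These sites were more than 1 kb from a transcript start. The site with the fourth largest loss, chr13:77577243-77579240, was 65 bp from a start. It scored 15.8 at day 3 (percentile 1.55), against 60.5 and 50.9 at day 0 (92.8 and 92.9), with widths of 410 bp at day 3 and 439 and 1998 bp at day 0.

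The strongest shared sites were chosen for a high percentile in all 3 lists, so their values are a description. At chr6:124979538-124981949, the site with the highest lowest percentile of the 3 lists, the score was 231 at day 3, against 250 and 173 in day 0 replicates 1 and 2, above percentile 99.9 in each list. At chr9:111191321-111193944 it was 154 at day 3, against 195 and 129 at day 0, and at chr1:183817917-183820359 it was 153, against 139 and 129. Of the 10 strongest sites, 6 were on chromosomes 6 and 8, which together held 13.8% of all shared sites. Chromosome 6 held 12.0% and chromosome 8 held 13.0% of the 5000 highest-scoring day 3 peaks. The site at chr8:47019054-47021529 lay 319 bp from a transcript start listed at day 0 with 0.1 FPKM.

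In lists of equal length, CTCF peaks lay near transcript starts to the same extent at both days. Starts were the first bases of 69345 rows in the RNA-seq lists of either day, from cells with another strain label (CAST/Ei x 129/Sv/Jae), and the same starts were used for every library. In these lists, 9.12% of day 3 peaks had their midpoint within 1 kb of a start (exact 95% interval 8.84 to 9.40). The shares were 8.12% (7.86 to 8.39) and 9.24% (8.96 to 9.52) in day 0 replicates 1 and 2. Day 3 lay between the day 0 libraries, and its difference of 0.437 percentage points from their mean is below their SD of 0.787. It was -0.119 points without day 0 replicate 1 and 0.994 points without replicate 2, so its sign depended on the library. In the full lists, which are of unequal length, the day 0 shares were 7.68% and 8.13%, and day 3 was 1.21 points above their mean with an SD of 0.315.

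The peaks near starts were more often upstream than downstream. Upstream midpoints made up 56.8% of the day 3 peaks within 1 kb, against 55.0% and 56.3% in day 0 replicates 1 and 2. The 500 bp just upstream of starts held 3.30% of the day 3 list, against 2.78% and 3.24% at day 0, and the next 500 bp downstream held 2.92%, against 2.70% and 2.90%. Among the highest 5000 peaks the share within 1 kb was larger in all 3 libraries, at 12.2% for day 3 and 13.5% and 13.7% for day 0. There day 3 was the lowest, and its interval (11.3 to 13.1) overlapped those of the day 0 libraries (12.6 to 14.5 and 12.7 to 14.6).

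The starts chosen changed the direction of this comparison. With the starts of the day's own RNA-seq list, the day 3 share was 6.46% and the day 0 shares were 7.29% and 8.24%, a difference of -1.31 percentage points from the day 0 mean. The day 3 RNA-seq list has 28677 rows and the day 0 list 40668. With the day 3 starts for all 3 libraries, the shares were 6.46% at day 3 and 5.62% and 6.40% at day 0. With the day 0 starts they were 8.21% at day 3 and 7.29% and 8.24% at day 0, so the lower value appeared where the 2 days were read against lists of different length.

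**Figure D4:**
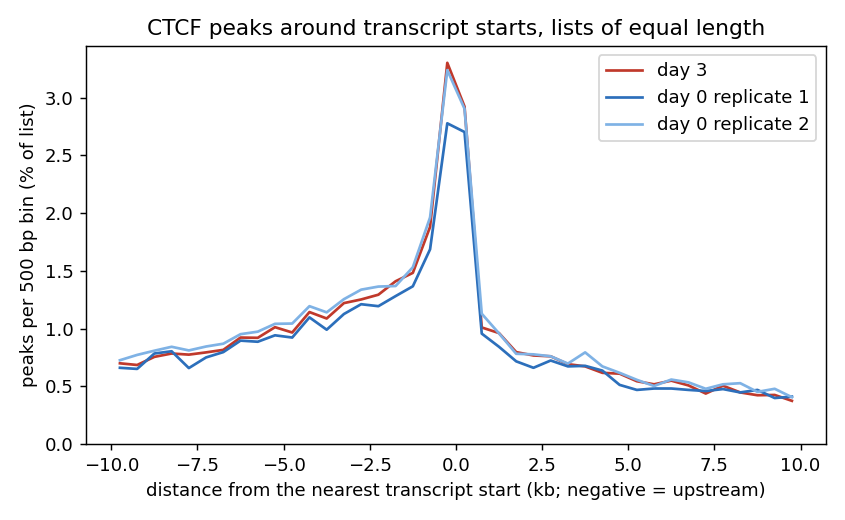
Share of each equal-length ChIP list (vertical axis, % of peaks per 500 bp bin) by the distance from the peak midpoint to the nearest transcript start (horizontal axis, kb, negative upstream). The day 3 line runs with that of day 0 replicate 2, and day 0 replicate 1 is lower at the start itself, with 2.78% against 3.30% at day 3 in the bin just upstream.

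In the full lists, sites of a single day were about as many in both directions, under rules that ask for different numbers of libraries. Day 3 had a peak and both day 0 libraries had none at 4919 of the 40600 day 3 sites (12.1%). Conversely, 4894 of the 32358 sites found in both day 0 replicates had no day 3 peak (15.1%). For comparison, 11675 of 44567 sites of day 0 replicate 1 (26.2%) and 36358 of 76399 sites of replicate 2 (47.6%) were in neither of the other libraries. In the full lists day 3 thus had the smallest share of sites of its own, beside the smallest number of peaks.

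These counts rested on the length of the lists and on which day 0 libraries were used. With lists of 41264 peaks each, 7268 sites were in day 3 alone (17.9% of day 3 sites), against 10236 in day 0 replicate 1 alone (25.2%) and 6501 in replicate 2 alone (15.8%), so replicate 2 then had the smallest share. In these lists 2790 sites were in both day 0 replicates and not day 3. Without day 0 replicate 1 there were 5453 sites of day 3 alone, and 12602 without replicate 2. Counted against single day 0 libraries, 41252 sites of replicate 2 and 16569 sites of replicate 1 had no day 3 peak. When a site had to have peaks in the upper 50% of the list or lists that held it, 51 sites of day 3 alone and 943 of day 0 without day 3 remained.

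Day 3 sites with no day 0 peak were weak and narrow. Their median score percentile was 10.4 in the day 3 list, against 64.6 for the sites in all 3 libraries, and 87.4% of them had scores in the lowest 25% of the list. Their median width was 1377 bp, against 2040 bp for day 3 peaks at shared sites. Sites of day 0 replicate 1 alone were alike in this, with a median percentile of 17.95 and a median width of 1548 bp. The day 0 sites without a day 3 peak were stronger, at median percentiles of 36.5 and 51.9 in replicates 1 and 2 and widths of 1868 and 2018 bp. The rule for this class asked for peaks in 2 libraries, and that for the other classes in 1.

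The 2 classes also differed in where they lay. A transcript start was within 1 kb of 4.66% of day 3 sites with no day 0 peak, 2.38% of the sites of day 0 replicate 1 alone and 6.72% of those of replicate 2 alone. It was within 1 kb of 6.89% of the day 0 sites with no day 3 peak and 9.99% of the sites in all 3 libraries. The highest share was 13.9%, at sites of day 3 and day 0 replicate 1 only, and sites of day 3 and replicate 2 only had 8.77%. Of the sites shared by day 3 and day 0 replicate 1, 1.91% (534 sites) lacked a replicate 2 peak, against 21.9% (7683 sites) of those shared by day 3 and replicate 2 that lacked a replicate 1 peak.

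The strongest day 3 site without a day 0 peak was chr12:68159437-68160627, with a score of 60.1 (percentile 91.1) and a width of 1191 bp, 304.5 bp from a transcript start. The next, chr8:6495776-6496864, scored 47.8 (percentile 80.7) with its midpoint 785296.5 bp from the nearest start, and chr14:53410741-53412752 scored 46.5 (percentile 79.2). Beyond these 3, the strongest 10 went down to percentile 65.0. At chr7:105637478-105639518 (score 42.1, percentile 73.2) a start lay 3.5 bp from the midpoint. The rows there were on the minus strand at day 3 with 5.48 FPKM, and on the plus strand at day 0 with 7.83 FPKM.

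Day 0 sites missing from day 3 included stronger ones. At chr8:97436257-97438507 the scores were 72.3 and 76.0 in day 0 replicates 1 and 2 (percentiles 96.8 and 98.7), and day 3 had no peak. The site lay 447.5 bp from a plus-strand start whose RNA was 26.1 FPKM at day 3, against 27.5 FPKM at day 0, so the transcript was listed at a like level at both days. At chr12:116861498-116863752 the day 0 scores were 86.6 and 55.6 (percentiles 98.7 and 94.9), and at chr12:112607613-112609899 they were 63.4 and 50.6 (94.2 and 92.8). At chr13:73757126-73759313 they were 59.7 and 46.9 (92.4 and 90.8). All 10 of the strongest such sites were at or above percentile 86.2 in both day 0 libraries and at least 1993 bp wide, which is the width of an ordinary strong peak.

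Day 3 sites without a day 0 peak were concentrated on chromosomes 6 and 8. They made up 20.7% of the day 3 sites of chromosome 6 (645 of 3121, exact 95% interval 19.3 to 22.1) and 21.9% of those of chromosome 8 (635 of 2903, 20.4 to 23.4). On the other chromosomes the share ran from 8.36% on chromosome 11 to 14.8% on X. The same chromosomes were also the highest for sites of day 0 replicate 1 alone, at 41.4% and 37.8%. For sites of replicate 2 alone they had ranks 1 and 3 of the 20 chromosomes, at 52.5% and 51.6%, in a narrower range that began at 43.2% on chromosome 7. This was seen after the values were known. The excess was present in day 0 replicate 1 as well as at day 3.

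The excess on chromosomes 6 and 8 was uneven along them. In windows of 10 Mb, day 3 sites without a day 0 peak ran from 10.5% (120 to 130 Mb) to 47.2% (10 to 20 Mb) of day 3 sites on chromosome 6 and from 13.9% to 34.7% on chromosome 8. These chromosomes also held many of the strongest peaks: among the highest 5000 of each list, chromosome 6 had 12.0% at day 3, against 12.2% and 11.3% in day 0 replicates 1 and 2. Chromosome 8 had 13.0% at day 3, against 12.7% and 11.1% at day 0. Day 0 sites without a day 3 peak, at 16.0% and 16.3% on chromosomes 6 and 8, lay within the range of the other chromosomes (12.9% to 19.5%). Without both chromosomes, 3639 of 34576 day 3 sites (10.5%) lacked a day 0 peak and 4165 of 27846 replicated day 0 sites (15.0%) lacked a day 3 peak. Whether this concentration reflects the cells or the libraries was not tested.

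**Figure D5:**
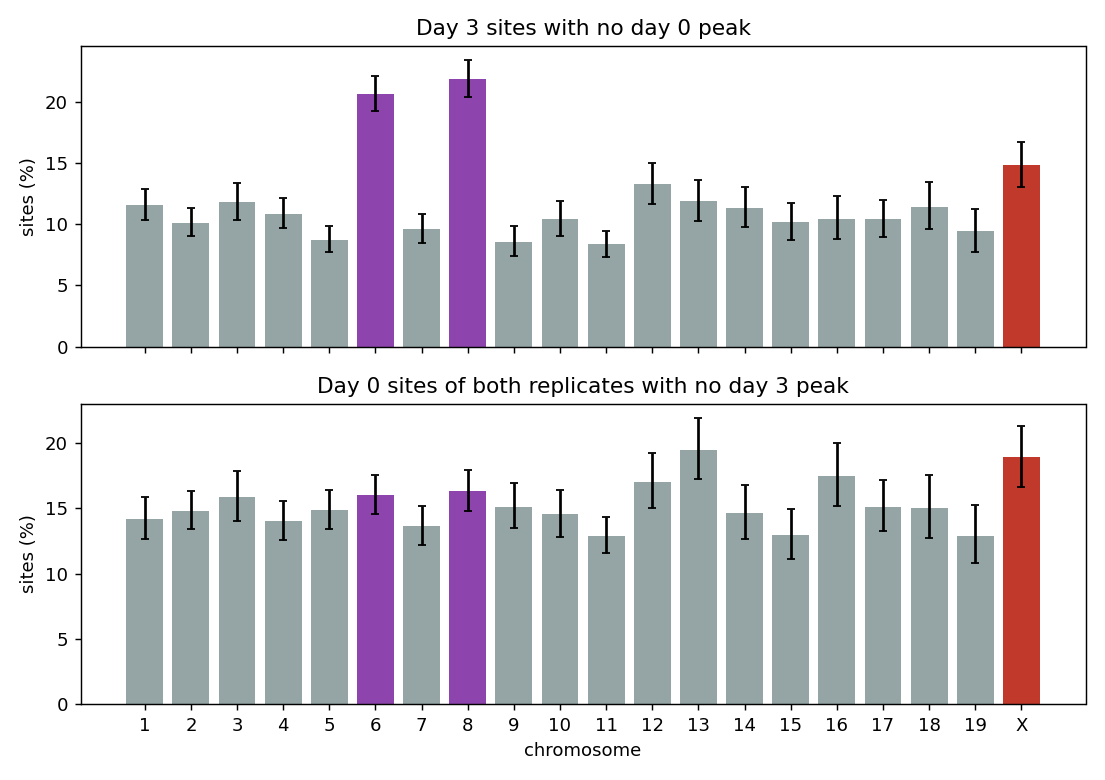
Top, share of day 3 sites with no day 0 peak, and bottom, share of sites in both day 0 replicates with no day 3 peak (vertical axes, %), by chromosome. Bars are shares and lines are exact 95% intervals for counting error. Chromosomes 6 and 8 (purple) stand at 20.7% and 21.9% in the top panel, and X (red) at 14.8% in the top panel and 18.9% in the bottom panel.

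The X chromosome, the subject of the series, held 3.53% of the day 3 peaks in lists of equal length, against 3.86% and 3.52% in day 0 replicates 1 and 2. The difference from the day 0 mean was -0.153 percentage points, less than the SD of 0.240 between the day 0 libraries. Without replicate 1 the difference was 0.0170 points and without replicate 2 it was -0.322 points, so its sign depended on the library. In the full lists the day 0 shares were 3.97% and 3.86%, and the difference was -0.383 points with an SD of 0.0746. Among the 20000 highest-scoring peaks, X held 3.00% at day 3, against 3.09% and 3.11% at day 0. Day 3 lay below both day 0 libraries in that set. The difference of -0.100 points was small. It was larger than the SD of 0.0141 between the day 0 libraries, but that SD rests on 2 close values. It does not cover counting error, for which no interval is given here, so X is not shown to hold fewer peaks at day 3. Its peaks ranked lower than those of the autosomes in every library, with median percentiles of 42.8 at day 3 and 40.3 and 45.0 at day 0.

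X had more sites found in few libraries than the autosomes had. Of its replicated day 0 sites, 211 of 1116 had no day 3 peak (18.9%, exact 95% interval 16.6 to 21.3), against 15.0% on autosomes (14.6 to 15.4) and 19.5% on chromosome 13. Among replicated sites in the upper 50% of both day 0 lists, 45 of 672 X sites had no day 3 peak (6.70%, 4.93 to 8.86), against 4.42% on autosomes (4.14 to 4.71). X was the highest of the 20 chromosomes by this measure, followed by chromosome 16 at 6.63%. In the other direction, 14.8% of day 3 sites on X had no day 0 peak, against 12.0% on autosomes.

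The day 0 libraries showed the same lean on X. Sites of replicate 1 alone were 35.5% of its sites on X, against 25.8% on autosomes, and sites of replicate 2 alone were 52.4% and 47.4%. Single-library sites on X were thus more frequent in all 3 libraries, where X peaks also had lower score percentiles, and the part of the score in this was not tested.

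Along X, the share of replicated day 0 sites without a day 3 peak was 30.4% from 100 to 110 Mb (24 of 79, exact 95% interval 20.5 to 41.8), the highest among windows with more than 40 such sites. It was 8.47% from 130 to 140 Mb (10 of 118, 4.14 to 15.0). These windows were picked after their values were seen. The strongest X sites missing at day 3 were chrX:138963559-138965791, with day 0 scores of 44.3 and 45.6 (percentiles 79.9 and 89.9), and chrX:8080459-8082590, with 45.0 and 33.9 (80.7 and 78.6). The strongest X site of day 3 alone, chrX:101618399-101620393, scored 27.5 (percentile 45.2), below the middle of the list. These X sites, too, were chosen after the values were known.

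Single-day sites were also counted in windows of 1 Mb. Among 2415 windows with at least 10 sites, the median share of day 3 sites without a day 0 peak was 4.76% of all sites. The highest share was 33.3%, 5 of 15 sites, on chromosome 2 from 96 to 97 Mb, and the fifth highest was 29.3%, 12 of 41 sites, on chromosome 6 from 15 to 16 Mb. For day 0 sites without a day 3 peak, the highest shares were 6 of 17 on chromosome 16 from 39 to 40 Mb (35.3%) and 5 of 15 on chromosome 7 from 131 to 132 Mb (33.3%). No window held more than 17 single-day sites of day 3 or 12 of day 0.

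Nuclear RNA at starts near single-day sites covered the same range as RNA at other starts. The log2 ratio of day 3 over day 0 FPKM, with a pseudocount of 1, had a median of 0.22 over the 7025 starts listed at both days, of which 945 (13.5%) had a log2 ratio of at least 1 and 311 (4.43%) of at most -1. It was 0.41 over the 53 starts within 1 kb of a day 3 site with no day 0 peak, of which 9 (17.0%) were at least 1 and 2 (3.77%) at most -1. It was 0.19 over the 68 starts near day 0 sites without a day 3 peak (10.3% and 5.88%) and 0.14 over the 571 starts near sites in all 3 libraries (11.7% and 4.55%). The 22 starts near sites of day 3 and day 0 replicate 1, present at both days, had a median of 0.43, so the value at day 3 sites was not the highest. The middle 50% of the 53 values ran from -0.06 to 0.78, which holds the median of all starts. Each day had 1 RNA-seq library, so the spread between libraries is unknown.

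CLIP peaks of CTCF lay at a smaller share of the sites of day 3 alone than of the shared sites in these lists. The CLIP lists were of the libraries made with UV, and those made without UV were not set beside them. At day 3 sites without a day 0 peak, 4.78% and 7.07% overlapped a peak of the day 3 CLIP replicates and 5.12% and 8.29% a peak of the day 0 CLIP replicates. At sites in all 3 libraries the shares were 10.9% and 15.7% for day 3 CLIP, and 11.1% and 16.9% for day 0 CLIP. Sites of day 0 without a day 3 peak had 10.97% and 17.96% for day 3 CLIP, and 12.3% and 18.5% for day 0 CLIP. Sites of day 0 replicate 1 alone had 4.49% and 6.90%, and 4.64% and 7.85%, close to the day 3 sites without a day 0 peak. Sites of day 0 replicate 2 alone had 9.99% and 14.9%, and 10.4% and 16.0%, closer to the sites in all 3 libraries. The median lengths of these 2 classes were alike, at 1548 bp for replicate 1 alone and 1541 bp for replicate 2 alone. Sites of the classes differ in length, with medians of 1377 bp for day 3 alone and 2342 bp for all 3 libraries, and the part of length in these shares was not tested. The order of the classes given here was the same with the CLIP lists of either day.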

How the data were processed

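CTCF ChIP was measured in 1 day 3 and 2 day 0 libraries, and nuclear RNA in 1 library per day. Groups came from the sample titles. Day 0 replicate 1 carries no number in its title and was numbered by accession order. Per the submitters' processing notes, the tools were bedtools 2.17.0, SAMtools 0.1.18, Novoalign 3.00.03, TopHat2 2.0.8, Cufflinks 2.1.1, Trim Galore 0.3.3 and cutadapt 1.0, with build mm9 and no roles given. A peak-calling program was not given in the sources used here.

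Peaks were listed by the authors for each library separately, and every deposited peak carries a score. The score was used to rank, describe and filter peaks within a list. The deposited RNA-seq rows have an unnamed value, read as FPKM because Cufflinks is among the authors' tools. Read depth is unknown for all lists. Inputs, CLIP libraries made without UV and allelic lists were not used here.

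Peaks on chromosomes 1 to 19 and X were kept, which left out 4 peaks at day 3 and 1 in each day 0 library. Peaks were shared at an overlap of at least 1 bp, and lists were cut to 41264 peaks by score. For matched pairs, ranks and sites the full lists were used. Sites were unions of overlapping peaks. A site with several peaks took the highest score. Distances to starts run from a peak's midpoint where lists are compared, and from the midpoint of the merged region for sites and named sites. RNA at named sites is given only for rows of at least 300 bp. Starts were matched between days within 100 bp on the same strand. Shares have Clopper-Pearson 95% intervals. The scripts used SciPy 1.17.1, NumPy 2.4.6 and pandas 2.3.3 in Python 3.11.15, with matplotlib 3.10.9 for plots, and the steps were tested on simulated data. Alternatives covered the overlap rule, list length, percentile scale, the starts used, chromosomes 6 and 8 and leaving out each day 0 library.

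Named are some of the 10 strongest sites per single-day class, the 10 largest shifts per direction, the 10 strongest shared sites and the 5 windows of 1 Mb per class with the largest share. Members and lists were chosen with earlier results of these data known. Gene names, the planned gene lists and sequences need an mm9 annotation or genome and were not used here.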

Additional observations from a re-analysis of the deposited data

Results flagged for a closer look

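Peaks on the ribosomal DNA sequence lay outside the chromosomes compared. The day 3 list held 4 such peaks, with scores from 58.0 to 2194. Day 0 replicate 1 held 1, with a score of 4466, and day 0 replicate 2 held none. Day 0 replicate 2 alone had 1 peak on Y, with a score of 9.61. The number of peaks on the ribosomal DNA sequence at day 3 was the value marked, since it lies outside the comparison. These values have no input beside them, since the inputs were not analysed here.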

How the results depend on the processing

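No paired analysis was possible because day 3 had 1 ChIP library. With the highest 20000 peaks, midpoint distance was 43.0 bp (62.5 bp in full lists) and the width difference -116.5 bp (16.5 bp). With starts of each day's own list the difference near starts was -1.31 percentage points (0.437). With full-list percentiles 15 sites were higher and 833 lower at day 3 (181 and 237). Leaving out a day 0 replicate gave 534 to 574 higher and 507 to 637 lower sites. Day 3 sites without a day 0 peak numbered 51 in the upper 50% of the list and 5453 to 12602 without a day 0 replicate (4919). Day 0 sites without a day 3 peak numbered 943 in the upper 50%, 2790 in lists of equal length and 16569 to 41252 against a single replicate (4894). The cause of the other changes was not tested, while counts against a single replicate follow from the looser rule. Leaving out a replicate moved the overlap share to 67.7% to 78.7%, the midpoint distance to 55.5 to 69.5 bp, the width difference to -8.0 to 41.0 bp, the share near starts to -0.119 to 0.994 points and the X share to -0.322 to 0.0170 points. In full lists the share near starts differed by 1.21 points and the X share by -0.383 points (-0.153), beyond the SD of the day 0 libraries in those lists, which differ in length. Among the 20000 highest-scoring peaks, in lists of equal length, the X share differed by -0.100 points, also beyond the SD there of 0.0141. Each such SD rests on 2 libraries and does not cover counting error. The 50% reciprocal overlap, the 5 kb distance, starts of rows with at least 1 FPKM and 300 bp, sites of exactly 1 peak, the 1 kb gap for missing sites and leaving out chromosomes 6 and 8 kept the direction of each difference they were run on and moved no count by over 1.5 times. The single-day counts, nearly equal at first, were 4398 at day 3 and 4582 at day 0 with the 1 kb gap, and 3639 and 4165 without chromosomes 6 and 8, so which is larger depends on the setting. The single day 3 library and unknown depth limit all comparisons.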
